A study of Mus musculus with 45 samples.

Results

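The comparison is between lines of CT26, a mouse colon carcinoma cell line grown in culture, that carry different short hairpin RNAs against the same gene, Soat1. The 3 libraries of the line with hairpin sh3 were set against the 6 libraries of the lines with hairpins sh1 and sh2, by column name, which uses 9 of the 45 labelled samples of the series. The study measured RNA in CT26 and in a liver line after a compound or after Soat1 knockdown. All 9 libraries here have the labelled genotype SOAT1-knockdown and no drug treatment, were collected 24 hours after seeding and share a single batch date. By their labels they differ only in the hairpin. Each hairpin was given as 1 line, so the hairpin and the line that carries it cannot be told apart. The labels do not say whether the 3 libraries of a hairpin came from separate cultures, so p-values measure only the spread between these libraries, which may be technical. A separate line with a hairpin against luciferase (shLucif) was left out of the fit and is given only as the reference level of Soat1 and of Exosc6.

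Soat1 encodes sterol O-acyltransferase, the endoplasmic reticulum enzyme that joins cholesterol to a fatty acid for storage in lipid droplets. Cells sense free cholesterol in the same membrane through SCAP and the SREBP transcription factors, which turn on cholesterol synthesis and uptake when sterol is scarce. The interferon pathway is a separate system. Type I interferon, made when the sensors RIG-I and MDA5 meet double-stranded RNA, acts through its receptor, JAK1 and TYK2 to activate a transcription factor complex, which binds the interferon-stimulated response element in the promoters of antiviral genes.

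Soat1 itself was low in all 3 lines. Its level was 3.29, 3.23 and 3.28 FPKM in sh1, 3.44, 3.55 and 3.41 in sh2 and 2.52, 2.54 and 2.71 in sh3, where FPKM counts mapped fragments relative to transcript length and to the total mapped in the library. With the shLucif hairpin it was 19.7, 19.8 and 20.2 FPKM, so the means of sh1, sh2 and sh3 were 16.4%, 17.4% and 13.0% of that level. The 3 sh3 values lay below all 6 others, a log2 fold change of -0.28 (SE 0.0443, adjusted p = 0.000503). Soat2, the gene of the related enzyme, was at 52.04 ± 4.25 FPKM (SD, n = 6) with sh1 and sh2 and 58.8 ± 5.62 (SD, n = 3) with sh3, which was not called (0.17 on the log2 scale, adjusted p = 0.0604). Soat2 was called without the first sh1 library (0.20, adjusted p = 0.0326) and without the first sh3 library (0.24, adjusted p = 0.0246). Throughout, log2 fold changes are differences of group means of log2(FPKM + 1), sh3 minus the mean of sh1 and sh2, which understates the change of genes with low FPKM. The tests are limma's with Benjamini-Hochberg adjustment over all genes tested, and "called" means an adjusted p under 0.05.

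The libraries of sh1 and sh2 were as much alike as replicates. Over genes, Pearson's r of log2(FPKM + 1) between an sh1 and an sh2 library was 0.9891 to 0.9904, against 0.9887 to 0.9902 within sh1, 0.9904 to 0.992 within sh2 and 0.9885 to 0.9906 within sh3. Between sh3 and the others it was 0.9498 to 0.9626. Of the sh3 libraries, the third stood nearest to sh1 and sh2, with a mean squared log2 difference from their mean of 0.210, against 0.256 and 0.249 for the other two. No gene was called between sh2 and sh1 (lowest adjusted p = 0.126), and 835 of 11701 genes, 7.14%, had an unadjusted p under 0.05. The labels give sh1 and sh2 as separate hairpins. The deposited columns of sh1 carry an extra number that the labels do not explain, and whether the 6 libraries come from separate lines was not tested, so agreement of the comparison with sh1 and that with sh2 does not count as 2 independent results. The libraries of sh1 and sh2 are called the reference here. Where a gene is given by 2 ranges, the first is that of the 6 reference libraries and the second that of sh3, and a bracketed number is its log2 fold change.

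Against that reference sh3 differed in most of its transcriptome. Of the 11701 genes tested, 6925 (59.2%) were called, 4064 higher in sh3 (34.7%) and 2861 lower (24.5%). Most of these differences were small: 403 genes (3.44%) were called with at least a 2-fold change, 161 higher (1.38%) and 242 lower (2.07%). With 0.1 FPKM added before the logarithm in place of 1 FPKM, this split turned, to 431 higher and 361 lower. In 6273 genes (53.6%) all 3 sh3 values lay outside the range of the 6 others, 3732 above it (31.9%) and 2541 below it (21.7%). Against each reference line alone the calls were 6211 (53.1%) for sh1 and 6345 (54.2%) for sh2, comparisons that share the sh3 libraries. From the 5th to the 95th percentile of genes, log2 differences ran from -0.64 to 0.72 for sh3 minus sh1 and from -0.66 to 0.72 for sh3 minus sh2, but only from -0.18 to 0.19 for sh2 minus sh1. The share of calls that were higher in sh3, 58.7%, depended on the scaling: it was 47.2% after median-ratio scaling (3222 higher, 3600 lower) and 53.1% after quantile normalization. The median log2 fold change of all genes was 0.05 as deposited and -0.02 after median-ratio scaling. More genes reached 1 FPKM in sh3 (11437 to 11481 per library) than in sh1 (11184 to 11255) or sh2 (11163 to 11246). Total reads are not given in FPKM, so the depth is unknown, and the smallest FPKM steps put the relative depth of the 9 libraries between 0.889 and 1.17, with sh3 at both ends.

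**Figure D1:**
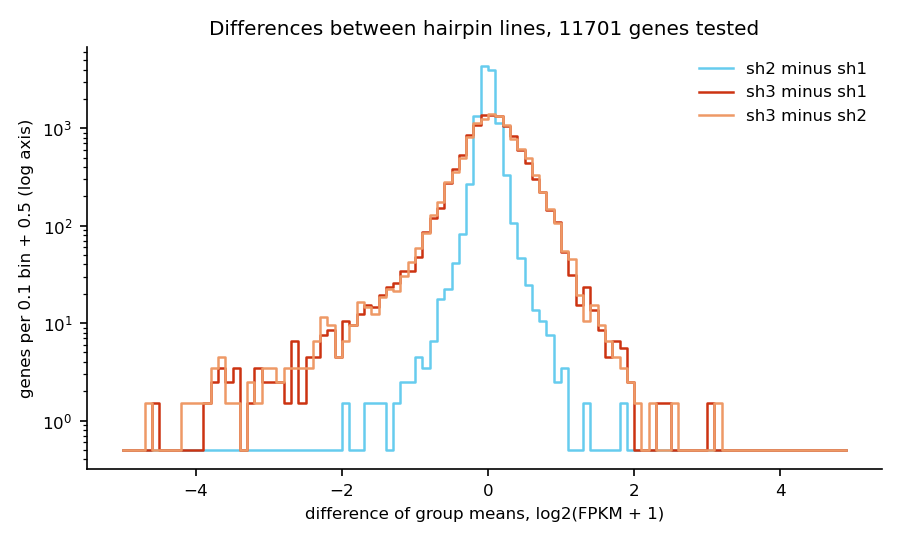
Number of genes (log axis, with 0.5 added to each bin) by the difference of group means of log2(FPKM + 1), in bins of 0.1, for the 11701 genes tested and each pair of hairpin lines. The sh2 minus sh1 curve is narrow for most genes. The 2 curves with sh3 are wider on both sides and nearly overlie each other. Genes called with at least a 2-fold change were more often lower in sh3 (240 against 160 for sh3 minus sh1, 252 against 164 for sh3 minus sh2). Values were limited to 5 on either side. The highest differences were 5.53 for sh3 minus sh1, 3.11 for sh3 minus sh2 and 5.56 for sh2 minus sh1.

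The genes furthest down in sh3 were interferon-stimulated genes. Of the 12 protein-coding genes with the largest decrease, 11 are known to be induced by interferon: Usp18, Ifit1, Ifit3, Rsad2, Ifi44, Isg15, Zbp1, Ifi27l2a, Irf7, Oasl2 and Gbp3. The remaining one was Exosc6. Usp18 (chr6:121245906-121270917 in GRCm38), a protease that takes ISG15 off proteins and damps interferon receptor signalling, was at 95.8, 104 and 105 FPKM in sh1, 116, 104 and 114 in sh2 and 2.98, 3.09 and 4.53 in sh3. Every sh3 library was far below every reference library, a log2 fold change of -4.58 (SE 0.0987, adjusted p = 7.11e-09), and the sh3 mean was 3.32% of the reference mean. Isg15 (chr4:156199424-156200818), the ubiquitin-like protein that USP18 removes, was the most abundant of them.

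Isg15 was at 376, 414 and 385 FPKM in sh1, 430.3, 390.2 and 414 in sh2 and 27.7, 27.1 and 34.7 in sh3, a log2 fold change of -3.71 (SE 0.077, adjusted p = 6.02e-09). Ifit1, whose protein binds foreign RNA ends, was at 120.2, 136 and 141 FPKM in sh1, 159, 144 and 156 in sh2 and 7.39, 6.72 and 10.3 in sh3, a log2 fold change of -3.99 (SE 0.11, adjusted p = 2.11e-08). The 3 sh3 values stood together and far below the reference in both genes. Rsad2, the gene of viperin, an antiviral radical SAM enzyme, was at 32.4, 39.05 and 40.6 FPKM in sh1, 42.2, 41.5 and 47.1 in sh2 and 1.79, 1.63 and 2.47 in sh3, a log2 fold change of -3.81 (SE 0.1, adjusted p = 1.78e-08). Irf7 (chr7:141262706-141266481), the transcription factor that amplifies interferon production, was at 39.4, 43.9 and 43.4 FPKM in sh1, 44.6, 45.8 and 51.8 in sh2 and 2.705, 2.51 and 3.19 in sh3, a log2 fold change of -3.59 (SE 0.0705, adjusted p = 6.02e-09). The third sh3 library held the highest of the 3 sh3 values in all 12 leading genes but Ifi27l2a.

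The other leading genes had ranges just as separate. Ifit3 was at 37.7 to 58.3 FPKM in the reference and 1.41 to 2.76 FPKM in sh3 (-3.95), and reads may be shared with its near copy Ifit3b. Zbp1, a sensor of Z-form nucleic acid, was at 20.5 to 30.2 FPKM and 0.942 to 1.34 FPKM (-3.62), and Ifi44 at 33.9 to 44.97 FPKM and 1.77 to 2.54 FPKM (-3.77). Oasl2, of the oligoadenylate synthetase family, was at 40.7 to 72.3 FPKM and 2.21 to 5.53 FPKM (-3.58), Ifi27l2a at 55.7 to 69.8 FPKM and 3.42 to 5.34 FPKM (-3.61), and Gbp3, a guanylate-binding protein, at 41.3 to 54.4 FPKM and 2.796 to 3.98 FPKM (-3.56). The adjusted p of these 6 genes lay between 1.5e-08 and 3.31e-06.

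**Figure D2:**
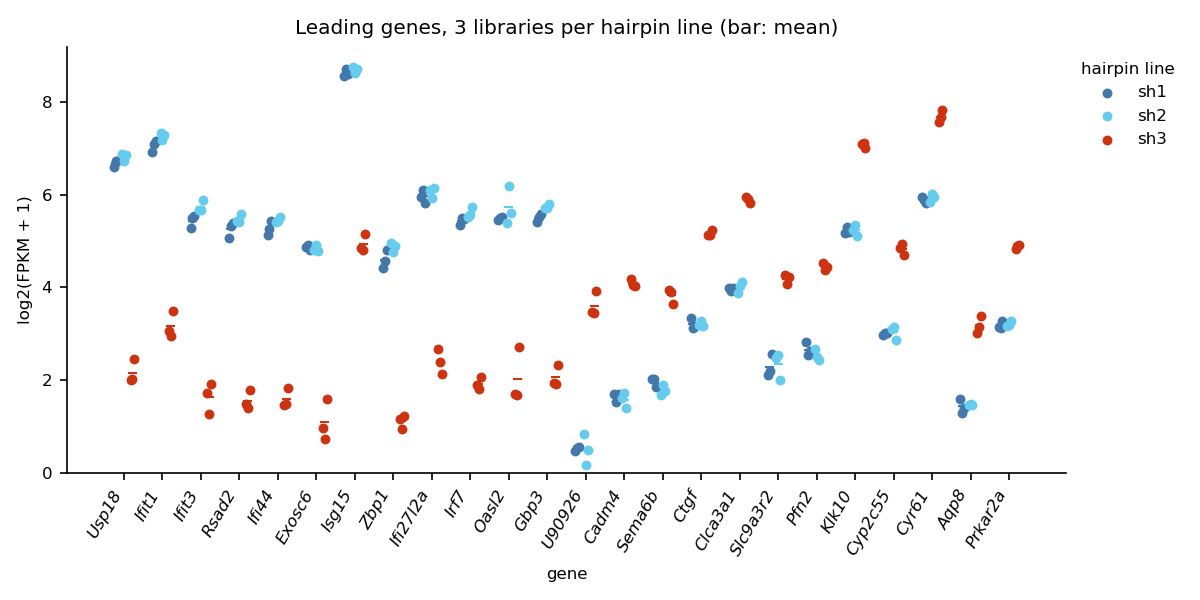
Expression, log2(FPKM + 1), of the 12 protein-coding genes furthest down and the 12 furthest up in sh3, one point per library and a bar at the mean of 3. The sh1 and sh2 points mix, and all 3 sh3 points lie outside them in every gene shown.

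The promoters of these genes were searched for the core of the interferon-stimulated response element, GAAANNGAAA or its reverse complement TTTCNNTTTC, in the 300 bases from 250 before to 50 after each RefSeq start site (GRCm38.p6). Of 190 promoters of the genes called at least 2-fold lower in sh3, 52 held it (27.4%), against 335 of 10351 promoters of all genes tested (3.24%), 16 of 38 promoters of the list of interferon-stimulated effectors (42.1%), 6 of 139 of the genes called at least 2-fold higher (4.32%) and 1131 of 32851 promoters in all (3.44%). Promoters of the same gene can overlap and count separately, and a match of letters is not a bound site. Of the 12 leading genes, 9 had a promoter in the table and 5 of those held the motif. Of the 12 genes furthest up in sh3, given further below, 10 had a promoter. The motif was in 2 of those, Clca3a1 and Sema6b (2 of 12 promoters, 16.7%). The stretches below, 40 bases each on the gene's strand, are those of the 5 lower genes, with the motif in capitals. They are shown because their genes lead the comparison.
Ifit1, chr19:34640770-34640809, plus strand: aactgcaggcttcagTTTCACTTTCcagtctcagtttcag
Ifit3, chr19:34583358-34583397, plus strand: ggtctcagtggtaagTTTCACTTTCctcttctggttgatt
Rsad2, chr12:26456548-26456587, minus strand: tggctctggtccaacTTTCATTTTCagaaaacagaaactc
Isg15, chr4:156200872-156200911, minus strand: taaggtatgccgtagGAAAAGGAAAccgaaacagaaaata
Gbp3, chr3:142559984-142560023, plus strand: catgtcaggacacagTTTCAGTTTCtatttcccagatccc
The motif began 104 bases before the start site in Ifit1, 156 in Ifit3, 120 in Rsad2, 78 in Isg15 and 45 in Gbp3. It read GAAA on the gene's own strand in Isg15 and on the other strand in the remaining 4.

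The pathway was then followed from ligand to target. Ifnb1, the gene of interferon beta, was at 1.26, 1.36 and 1.32 FPKM in sh1, 1.72, 1.34 and 2.19 in sh2 and 0, 0.0129 and 0.249 in sh3. It was close to 0 in sh3 and above 1 FPKM in all 6 reference libraries (-1.22). It passed the filter, 1 FPKM in 3 libraries, only through the reference, where it is high. Fitted with no filter on low values, its adjusted p was 0.00015 (limma). Ifna4, an interferon alpha gene, did not reach that filter and was not tested. It was at 0.381 to 1.21 FPKM in the reference, and in sh3 it was listed at 0 in 2 libraries and at 0.0877 in the third. These 2 genes, and those of the receptor, its kinases and the sensors named next other than Ifih1, were chosen after their values were seen.

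No difference was detected in the receptor genes. Ifnar1 was at 6.19 to 8.56 FPKM in the reference and 6.57 to 8.55 FPKM in sh3 (0.03, SE 0.104, adjusted p = 0.835), and Ifnar2 at 5.87 to 8.03 FPKM and 7.302 to 7.495 FPKM (0.04, SE 0.0768, adjusted p = 0.702). Both differences turned slightly negative after median-ratio scaling, after quantile normalization and without the third sh1 library, and that of Ifnar1 also without the first sh3 library. Of the receptor's kinases, Jak1 was slightly lower (-0.17, adjusted p = 0.0106), with overlapping ranges, and Tyk2 was higher, at 1.13 to 1.41 FPKM and 2.61 to 3.13 FPKM (0.74, adjusted p = 1.27e-05).

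Transcription factor genes below the receptor, Stat2 and Irf9, were lower, and they are interferon-induced themselves. Stat2 was at 15.6, 15.2 and 16.5 FPKM in sh1, 15.7, 16.4 and 19.2 in sh2 and 2.41, 1.81 and 2.63 in sh3, a log2 fold change of -2.41 (SE 0.0889, adjusted p = 9.57e-08), and Irf9 was at 12.7 to 14.2 FPKM and 4.17 to 5.17 FPKM (-1.40), again with no overlap. Irf3, the factor that starts interferon transcription and is not interferon-induced, was at 6.61 to 8.22 FPKM and 6.82 to 7.41 FPKM, which did not pass the test (-0.06, adjusted p = 0.479).

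Among the sensors, Ifih1, which encodes MDA5, was at 24.98, 28.7 and 29.8 FPKM in sh1, 28.6, 28.8 and 31.6 in sh2 and 3.31, 3.14 and 4.02 in sh3, a log2 fold change of -2.73 (SE 0.0768, adjusted p = 2.24e-08). Ddx58, which encodes RIG-I, was at 23.96 to 27.04 FPKM and 5.91 to 6.96 FPKM (-1.87), Tlr3 at 1.93 to 3.43 FPKM and 0.738 to 1.28 FPKM (-0.90), and the RNA-activated kinase gene Eif2ak2 at 29.3 to 35.2 FPKM and 10.6 to 11.9 FPKM (-1.40). Mavs, the adaptor on which RIG-I and MDA5 converge, went the other way, at 15.3 to 17.3 FPKM and 19.6 to 25.8 FPKM (0.50, adjusted p = 0.000641). Of the list of sensors and interferon factors as a whole, 25 of 26 members were tested, 1 of them passing only through the reference libraries. Of the 25, 12 were lower (48%, against 24.5% of all genes) and 4 higher (16%, against 34.7%). The median log2 fold change was -0.17 against 0.05 for all genes.

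**Figure D3:**
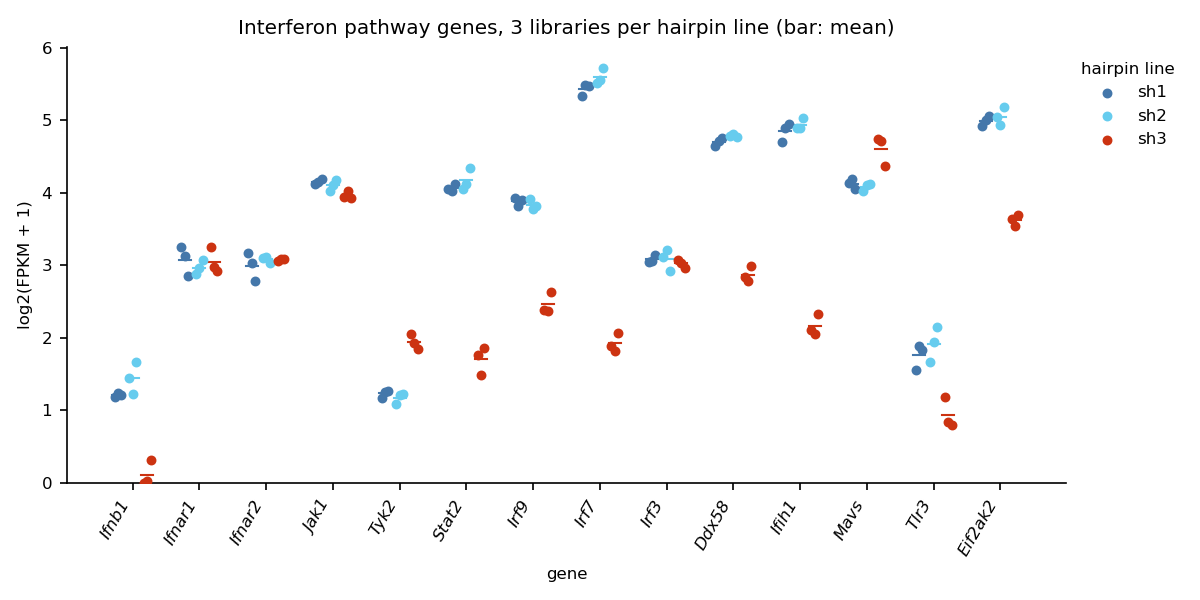
Expression, log2(FPKM + 1), of interferon pathway genes from ligand (Ifnb1) through receptor, kinases and transcription factors to sensors, one point per library and a bar at the mean of 3. Stat2, Irf9, Irf7, Ddx58, Ifih1 and Eif2ak2 are lower in all 3 sh3 libraries, Ifnar1, Ifnar2 and Irf3 overlap, and Tyk2 and Mavs are higher.

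Effector genes of the interferon response fell almost as a whole. All 42 members of the list passed the filter, 3 of them only through the reference libraries, where they are high. Of the 42, 39 were lower in sh3 (92.9%, against 24.5% of all genes) and 3 higher, with a median log2 fold change of -2.07. None of the 42 had overlapping ranges, which also held for 53.6% of all genes tested. The 3 higher genes, named after their values were seen, were Samhd1 (0.41), an enzyme that breaks down deoxynucleotides, Ifitm1 (0.62), a membrane protein that blocks virus entry, and Ifi27 (0.96). Across other settings the number lower ran from 37 to 39. Members of multigene families in this list (Ifit3 and Ifit3b, and the Oas1 genes) may share reads. Of the guanylate-binding proteins and immunity-related GTPases, interferon-induced enzymes that attack the membranes around intracellular pathogens, 12 of 17 passed the filter, all 12 lower, with a median of -2.27, though 4 of the 12 passed only through the reference libraries. Besides Gbp3, Gbp2 was at 21.6 to 30.5 FPKM and 2.34 to 3.53 FPKM (-2.85), Tgtp2 at 9.86 to 13.2 FPKM and 1.04 to 1.54 FPKM (-2.52) and Gbp7 at 6.45 to 12.3 FPKM and 1.03 to 1.17 FPKM (-2.37). Near copies in these families may share reads as well.

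Most genes of MHC class I antigen presentation were lower in sh3. Of 20 listed genes 18 were tested, 1 of them passing the filter only through the reference libraries. Of the 18, 14 were lower (77.8%, against 24.5% of all genes) and none was higher (1 without the third sh3 library). The median was -0.46. Tap1, a subunit of the peptide transporter, was at 14.8, 16.1 and 16.04 FPKM in sh1, 15.03, 14.9 and 16.5 in sh2 and 3.26, 4.26 and 3.900 in sh3, a log2 fold change of -1.79 (SE 0.0698, adjusted p = 1.24e-07). Tapbp, the chaperone tapasin, was at 35.4 to 40.3 FPKM and 14.9 to 16.7 FPKM (-1.19), and Nlrc5, the transactivator of the class I genes, at 4.11 to 5.09 FPKM and 1.57 to 1.81 FPKM (-1.06). The class I heavy chain gene H2-Q4 was at 45.95 to 52.7 FPKM and 23.4 to 24.00 FPKM (-1.03). Named after their values were seen, the classical heavy chain genes H2-K1 (-0.58) and H2-D1 (-0.66) and the light chain gene B2m (-0.82) were also lower, by less than Tap1. Reads of the heavy chain genes may be shared between copies.

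Of the immune checkpoint ligands, 10 of 19 genes in the table passed the filter, with a median of -0.47. Of the 10, 6 were lower (60%, against 24.5% of all genes) and 2 higher (20%, against 34.7%). Cd274, which encodes PD-L1, was at 5.89, 7.55 and 7.93 FPKM in sh1, 8.26, 8.05 and 9.55 in sh2 and 1.46, 1.13 and 1.48 in sh3, a log2 fold change of -1.90 (SE 0.0959, adjusted p = 5.94e-07). Vtcn1 (-1.04) and the poliovirus receptor gene Pvr (-0.996) were lower as well. Tnfsf9, the ligand of the co-stimulatory receptor 4-1BB, was higher, at 4.48 to 5.68 FPKM and 9.32 to 11.00 FPKM (0.92).

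Secreted signals included genes of both directions. Of 43 listed chemokines and cytokines 19 were tested, with 8 lower (42.1%, against 24.5% of all genes) and 6 higher (31.6%, against 34.7%) and a median of -0.02. Without the third sh3 library 3 were higher. Of the 19, 2 passed the filter only through the reference and 2 only through sh3, so these shares depend in part on the filter. Cxcl10, an interferon-induced chemokine that draws T cells, was at 65.3, 70.4 and 75.1 FPKM in sh1, 76.9, 69.6 and 73.3 in sh2 and 12.1, 13.2 and 18.9 in sh3, a log2 fold change of -2.23 (SE 0.118, adjusted p = 7.82e-07). Ccl5 was at 18.2 to 25.4 FPKM and 5.24 to 6.51 FPKM (-1.73) and Il33, an alarmin of the interleukin-1 family, at 6.75 to 9.07 FPKM and 1.53 to 1.76 FPKM (-1.78). Ccl20 was near 0 in the reference, at 0 to 0.167 FPKM, and at 1.46 to 3.35 FPKM in sh3 (1.497). It passed the filter only through sh3, and fitted with no filter on low values its adjusted p was 0.00046 (limma). Of the NF-kB subunits, inhibitors and feedback genes, 18 of 20 were tested, with a median of 0.16. Of the 18, 8 were higher (44.4%) and 2 lower (11.1%), and 1 passed the filter only through sh3. The inhibitors Nfkbia (0.88) and Nfkbie (1.004), and Tnip1 (0.88) and Traf1 (1.01), were higher. Ccl20, Nfkbia and Traf1 are known NF-kB targets, and whether NF-kB activity differed was not tested.

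The genes furthest up in sh3 came from no single one of the lists. U90926 was at 0.381, 0.447 and 0.464 FPKM in sh1, 0.777, 0.129 and 0.409 in sh2 and 10.02, 9.88 and 14.1 in sh3 (3.10). It passed the filter only through sh3, where it is high, and fitted with no filter on low values its adjusted p was 9.8e-06 (limma). Acacb, Aldh1a1, Ccl20, Cdh17 and Traf1, named in other groups, also had all 6 reference values under 1 FPKM. Cadm4, a cell adhesion molecule of the immunoglobulin superfamily, was at 2.26, 1.904 and 2.23 FPKM in sh1, 2.05, 2.29 and 1.66 in sh2 and 17.02, 15.5 and 15.3 in sh3, a log2 fold change of 2.47 (SE 0.0769, adjusted p = 3.67e-08). In both, all 3 sh3 libraries lay several-fold above the reference. Cyr61 and Ctgf, which encode secreted matricellular proteins and are known targets of the YAP and TEAD factors, rose together. Ctgf was at 9.104, 7.73 and 8.04 FPKM in sh1, 8.06, 8.67 and 7.97 in sh2 and 33.98, 33.95 and 36.8 in sh3, a log2 fold change of 1.96 (SE 0.0562, adjusted p = 2.55e-08). Cyr61 was at 60.5, 58.2 and 55.3 FPKM in sh1, 56.2, 63.1 and 60.9 in sh2 and 187, 202 and 224 in sh3, a log2 fold change of 1.77 (SE 0.061, adjusted p = 6.02e-08). Neither gene was called between sh1 and sh2.

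The rest of the 12 were Sema6b, a semaphorin (2.19 to 3.095 FPKM against 11.5 to 14.4 FPKM in sh3, 1.96), Clca3a1, a chloride channel accessory protein (13.7 to 16.2 FPKM against 55.5 to 60.7 FPKM, 1.91), and the scaffold gene Slc9a3r2 (2.99 to 4.91 FPKM against 15.8 to 18.2 FPKM, 1.87). The actin-binding gene Pfn2 was at 4.37 to 6.03 FPKM against 19.8 to 22.1 FPKM (1.85), and Klk10, a secreted kallikrein-related peptidase, at 33.5 to 39.6 FPKM against 127 to 137 FPKM (1.84). Cyp2c55, a cytochrome P450, was at 6.29 to 7.88 FPKM against 24.8 to 29.5 FPKM (1.80), the water channel gene Aqp8 at 1.46 to 2.02 FPKM against 7.14 to 9.38 FPKM (1.73) and Prkar2a, a regulatory subunit of protein kinase A, at 7.77 to 8.696 FPKM against 27.4 to 29.1 FPKM (1.68). All were called, with adjusted p between 2.24e-08 and 5.02e-06. No sh3 library overlapped the reference in any of them.

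Exosc6, a subunit of the RNA exosome, was the one leading gene among those lower in sh3 that is not known as interferon-induced. It was at 28.4, 29.3 and 26.9 FPKM in sh1, 26.9, 29.3 and 26.5 in sh2 and 0.954, 0.665 and 2.01 in sh3, a log2 fold change of -3.75 (SE 0.154, adjusted p = 1.66e-07). Its gene model (chr8:111056339-111057664) lies inside that of Aars, the alanyl-tRNA synthetase gene (chr8:111033144-111057664), on the same strand, so reads of the 2 genes may not be told apart. Aars changed little, at 88.98 to 97.00 FPKM and 73.9 to 86.2 FPKM (-0.24, adjusted p = 0.00211). In the shLucif libraries Exosc6 was at 1.26, 25.8 and 29.0 FPKM, so a value near that of sh3 also occurred in 1 control library.

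Genes of cholesterol synthesis were mostly higher in sh3. Of 20 listed genes of the pathway 18 were tested, with a median of 0.47. Of the 18, 10 were higher (55.6%, against 34.7% of all genes) and 2 lower (11.1%, against 24.5%). Only 1 was lower without the third sh3 library. Hmgcs1, the synthase that commits acetyl-CoA units to the pathway, was at 7.44, 6.79 and 7.06 FPKM in sh1, 6.53, 7.02 and 7.21 in sh2 and 18.3, 15.9 and 14.5 in sh3, a log2 fold change of 1.10 (SE 0.0698, adjusted p = 2.28e-06). Idi1, the isomerase of the isoprenoid building blocks, was at 2.96 to 3.98 FPKM and 8.74 to 11.1 FPKM (1.26), Acat2, the cytosolic thiolase at the pathway's start, at 5.26 to 8.88 FPKM and 17.7 to 18.5 FPKM (1.31), and Nsdhl at 7.104 to 9.12 FPKM and 13.9 to 16.3 FPKM (0.85). Named after their values were seen, Mvd, the mevalonate diphosphate decarboxylase, was at 3.15 to 4.34 FPKM and 5.13 to 8.19 FPKM (0.73), while Sqle overlapped, at 21.5 to 23.5 FPKM and 20.5 to 29.02 FPKM (0.16, adjusted p = 0.171). Sqle was called without the third sh3 library (0.31, adjusted p = 0.000521).

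Of the genes of sterol uptake and SREBP control, 13 of 15 were tested, with a median of 0.27. Of the 13, 7 were higher (53.8%, against 34.7% of all genes) and 3 lower (23.1%, against 24.5%). Srebf1, the gene of a sterol-regulated transcription factor, was at 13.7, 12.5 and 12.1 FPKM in sh1, 11.8, 11.3 and 11.9 in sh2 and 20.4, 19.6 and 17.9 in sh3, a log2 fold change of 0.62 (SE 0.0536, adjusted p = 1.33e-05). The sterol carrier gene Stard4 was higher as well, at 6.29 to 6.93 FPKM and 9.53 to 11.5 FPKM (0.64). Npc1, which moves cholesterol out of lysosomes, was lower, at 10.8, 8.17 and 10.7 FPKM in sh1, 9.67, 9.48 and 10.7 in sh2 and 4.09, 4.54 and 4.59 in sh3, a log2 fold change of -1.01 (SE 0.0863, adjusted p = 1.24e-05). Its partner Npc2 was lower too (-0.46, named after its values were seen), and Srebf2 did not pass the test (0.31, adjusted p = 0.0612). Srebf2 was called without the third sh3 library (0.46, adjusted p = 0.00862), the first of sh1 (0.36, adjusted p = 0.038) or the third of sh2 (0.36, adjusted p = 0.0346).

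Plin2, the coat protein of lipid droplets, was at 129, 126 and 136 FPKM in sh1, 135, 117 and 131 in sh2 and 46.5, 48.5 and 54.5 in sh3, a log2 fold change of -1.35 (SE 0.0623, adjusted p = 3.29e-07). It led the list of sterol esterification and lipid droplet genes, of which 13 of 22 were tested. Of the 13, 5 were lower (38.5%, against 24.5% of all genes) and 3 higher (23.1%, against 34.7%). Only 1 was higher without the second library of sh1, the first or the third of sh2 or the second of sh3. The list's median of 0.05 changed sign under median-ratio scaling. Nceh1, a hydrolase of cholesteryl esters (-0.51), Abhd5, the co-activator of triglyceride lipase (-0.52), and Fitm2 (-0.49) were lower, and Dgat2, which makes triglyceride and was named after its values were seen, was higher (0.45). LXR receptors and targets differed little: 6 of 11 were tested, 4 were higher, none was lower (1 without the second sh2 library) and the largest change was that of Rxrb (0.46). The cholesterol exporter gene Abca1 rose by 0.19, a call lost under 3 other settings (0.11 to 0.19), and without the second sh2 library (0.17) or the first (0.14) or second (0.18) of sh3. Among fatty acid synthesis genes, 17 of 18 were tested, 2 of them passing the filter only through sh3, where they are high. Of the 17, 11 were higher (64.7%) and 3 lower (17.6%), with a median of 0.29. These included Acacb (0.72), Scd2 (0.68) and Fasn (0.36, named after its values were seen) on the higher side and Me1 (-0.67) on the lower. Of 10 oxysterol enzymes and receptors tested 3 were higher and 2 lower, shares (30% and 20%) near those of all genes, and 1 was higher without the second sh3 library. Osbpl2 was lower (-1.11) and Osbpl5 higher (0.41).

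**Figure D4:**
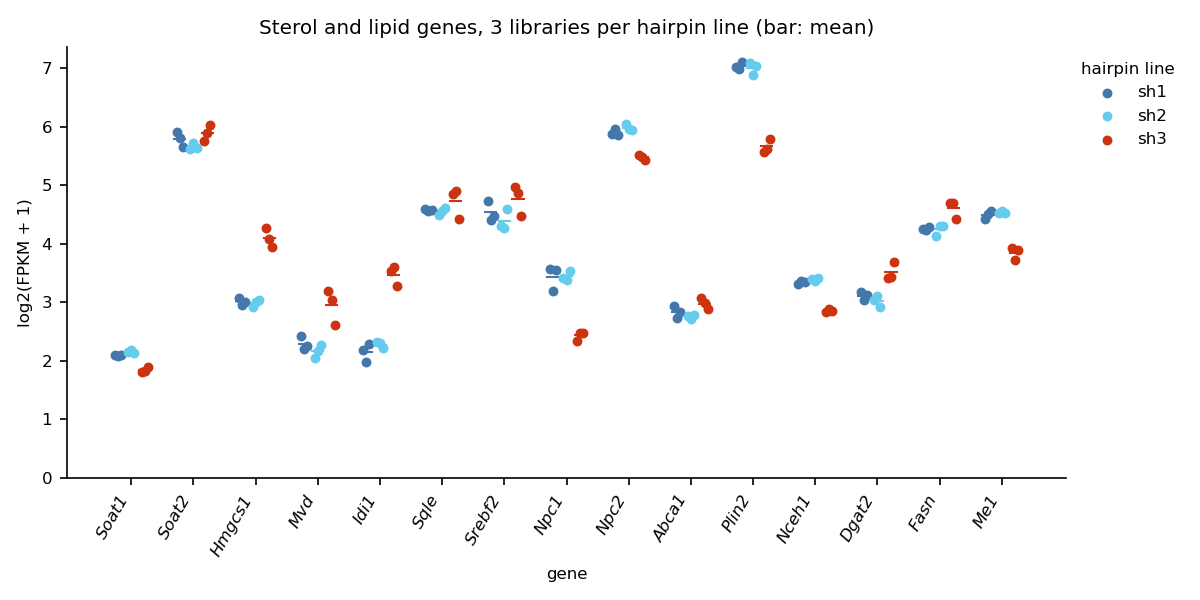
Expression, log2(FPKM + 1), of Soat1, Soat2 and genes of sterol and lipid metabolism, one point per library and a bar at the mean of 3. Hmgcs1 and Idi1 are higher in all 3 sh3 libraries, Npc1, Npc2, Plin2, Nceh1 and Me1 are lower, and Soat2, Sqle and Srebf2 overlap.

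Adhesion and matrix genes changed in both directions. Of 33 epithelial genes only 9 passed the filter, of which 7 were higher (77.8%, against 34.7% of all genes) and none lower. Their median was 0.65. Itgb4, the integrin subunit of hemidesmosomes, was at 1.64, 1.43 and 1.297 FPKM in sh1, 0.971, 1.23 and 1.42 in sh2 and 6.17, 6.104 and 5.76 in sh3, a log2 fold change of 1.59 (SE 0.076, adjusted p = 4.28e-07). Jup (0.82) and Krt20 (0.70) were higher as well. Itga3 was the second integrin to rise, at 9.54 to 11.6 FPKM and 31.5 to 33.4 FPKM (1.55), and Itgb7 fell (-1.12). Their integrin and cadherin list had 7 of 14 tested higher and 1 lower (2 without the second sh3 library). Of these 14, 1 passed the filter only through sh3. Mesenchymal genes were split, 7 higher and 7 lower of 16 tested (43.8% each, against 34.7% and 24.5% of all genes). Vim, the intermediate filament vimentin, rose to 374 to 462 FPKM from 220.1 to 237 FPKM (0.90) and Fn1 rose (0.72), while Twist2 was lower (-0.66). Of the matrix genes, 32 were tested, 2 of them passing the filter only through sh3, where they are high. Of the 32, 15 were higher (46.9%) and 11 lower (34.4%). Col1a1, a chain of type I collagen, was at 20.5, 21.5 and 19.9 FPKM in sh1, 19.1, 21.4 and 20.8 in sh2 and 55.8, 57.8 and 54.3 in sh3, a log2 fold change of 1.40 (SE 0.0452, adjusted p = 4.3e-08). Col6a1 rose by 1.35, whereas osteoglycin, Ogn, was lower, at 6.502, 6.93 and 8.64 FPKM in sh1, 8.795, 9.28 and 8.83 in sh2 and 1.75, 2.16 and 2.096 in sh3, a log2 fold change of -1.60 (SE 0.0829, adjusted p = 6.85e-07), and thrombospondin Thbs2 was lower too (-1.07).

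Growth signalling genes also differed, and shares are to be read against the 34.7% of all genes higher and 24.5% lower. Of the tested members, 1 each of the BMP and TGF-beta, Wnt and stem cell lists passed the filter only through sh3. In the list of growth factors and receptor kinases 2 members did so. The higher shares of these lists therefore depend in part on the filter. In the BMP and TGF-beta response list, 14 of 21 tested were higher and 4 lower, with a median of 0.40. Id2, an inhibitor of basic helix-loop-helix factors and a known BMP target, was at 6.44, 5.05 and 6.27 FPKM in sh1, 6.82, 5.65 and 6.67 in sh2 and 20.1, 18.2 and 17.1 in sh3, a log2 fold change of 1.45 (SE 0.0857, adjusted p = 1.58e-06), and Id3 was higher too (1.09). Grem1, a secreted antagonist of BMP ligands, was lower, at 147, 150.1 and 159 FPKM in sh1, 156, 158 and 159.8 in sh2 and 50.1, 54.8 and 73.02 in sh3, a log2 fold change of -1.39 (SE 0.0987, adjusted p = 4.27e-06). Inhba, a subunit of activin, was also lower (-1.06). Of 9 Wnt target and feedback genes tested, of 28 listed, 6 were higher (66.7%), among them Ccnd1 (0.49) and Fzd2 (0.73), and 2 lower (22.2%). Their median was 0.46, and 1 was lower without the second or the third library of sh2 or of sh3. Areg, the EGF receptor ligand amphiregulin, was lower, at 68.6 to 89.99 FPKM and 28.2 to 43.9 FPKM (-1.26). In its list of growth factors and receptor kinases, 13 of 28 tested were higher (46.4%) and 9 lower (32.1%). Immediate early genes gave 13 higher (46.4%) and 7 lower (25%, near the share of all genes) of 28 tested, and 4 lower without the second sh3 library. Besides Ctgf and Cyr61, Klf2 was higher (1.34) and the phosphatase gene Dusp4 lower (-0.96). Of 11 stem cell markers tested, 3 were higher (27.3%), including Aldh1a1 (1.10), and 3 lower (27.3%), including Sox9 (-1.17). Both shares were near those of all genes.

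Cell cycle genes leaned upward by small amounts. Of 32 mitosis and spindle genes 24 were higher (75%, against 34.7% of all genes) and none lower (1 without the third sh1 library). Their median was 0.25, and after median-ratio scaling 18 were higher and 2 lower. Kif20a (0.84), Ttk (0.65), Mki67 (0.56) and Ccna2 (0.53) changed most. Of 37 DNA replication genes 23 were higher (62.2%) and 6 lower (16.2%, against 24.5% of all genes), with a median of 0.21. Ccne1 was higher, at 13.6 to 14.4 FPKM and 27.6 to 30.2 FPKM (0.999), and Rrm2, the small subunit of ribonucleotide reductase, was lower, at 114, 118 and 117 FPKM in sh1, 118, 116 and 114 in sh2 and 54.6, 53.8 and 55.2 in sh3, a log2 fold change of -1.08 (SE 0.0282, adjusted p = 1.78e-08). Mcm3 (-0.70) was lower as well. Of 23 p53 targets tested, 8 were higher (34.8%, near the share of all genes) and 9 lower (39.1%).

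Metabolic and stress genes varied gene by gene, and shares are to be read against the 34.7% of all genes higher and 24.5% lower. In the glycolysis and hypoxia list 20 of 31 tested were higher and 8 lower, with a median of 0.27. Eno1 was higher, at 118 to 141 FPKM and 243 to 290.00 FPKM (1.06). Ndrg1, a gene induced by hypoxia, was lower, at 126, 121 and 125 FPKM in sh1, 115, 108 and 121 in sh2 and 33.4, 35.02 and 41.4 in sh3, a log2 fold change of -1.68 (SE 0.0652, adjusted p = 1.22e-07), and Ero1l was lower (-1.31). Car9, also hypoxia-induced, was higher (1.52, adjusted p = 0.00413) but ranged widely among the reference libraries, at 0.0867 to 3.08 FPKM against 4.06 to 6.89 FPKM. Of the ATF4 amino acid stress genes, 18 of 27 tested were lower and 3 higher, with a median of -0.28. Asns, asparagine synthetase, was at 195 to 234 FPKM and 143 to 152 FPKM (-0.55), Ddit3 at 158 to 175 FPKM and 81.5 to 99.98 FPKM (-0.85), and Sesn2 (-0.63) and Cebpg (-1.10) were lower too. Endoplasmic reticulum chaperone genes gave 6 higher, led by Herpud1 (1.01), and 9 lower, led by Dnajc3 (-0.90), of 21 tested. Of 16 heat shock genes 5 were higher (31.2%; 3 genes without the second sh3 library), among them Hsp90ab1 (0.54), and 3 lower (18.8%), and of 29 NRF2 genes 9 were higher (31.03%) and 8 lower (27.6%), both near the shares of all genes, with Gstm1 (0.79) and Nqo1 (0.74) higher. Of 15 xenobiotic genes tested, 3 were higher and 7 lower, and Ahr, the aryl hydrocarbon receptor, was at 3.37 to 4.22 FPKM and 10.1 to 10.2 FPKM (1.17). Lysosomal genes divided into 11 higher, with the regulator gene Tfeb (0.92) and Glb1 (0.76), and 12 lower, with Gla (-1.21) and Lgmn (-0.995), of 26. The metallothionein genes Mt1 (-1.16) and Mt2 (-0.81) were lower. Of 13 mitochondrially encoded mRNAs 5 were higher and none lower, a count that moved with the scaling and with single libraries. It was 2 higher after median-ratio scaling and 3 higher and 2 lower after quantile normalization. The number higher was 10 without the third sh1 library, 3 without the second of sh1 or the second of sh3 and 2 without the first of sh3.

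Because the lines differ by a hairpin, the genes that process hairpins were listed too. Of 14 tested, 4 were higher and 4 lower, 28.6% each, against 34.7% and 24.5% of all genes. The median of 0.03 changed sign under another scaling. Prkra, a partner of Dicer and of the kinase encoded by Eif2ak2, was at 4.72 to 6.16 FPKM and 8.79 to 11.3 FPKM (0.83), and Drosha (0.63), Dgcr8 (0.47) and Ago2 (0.31) were higher. Lower genes included Ago1 (-0.24) and Ago3 (-0.27), named after their values were seen. The lowest value in the list was -0.28.

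**Figure D5:**
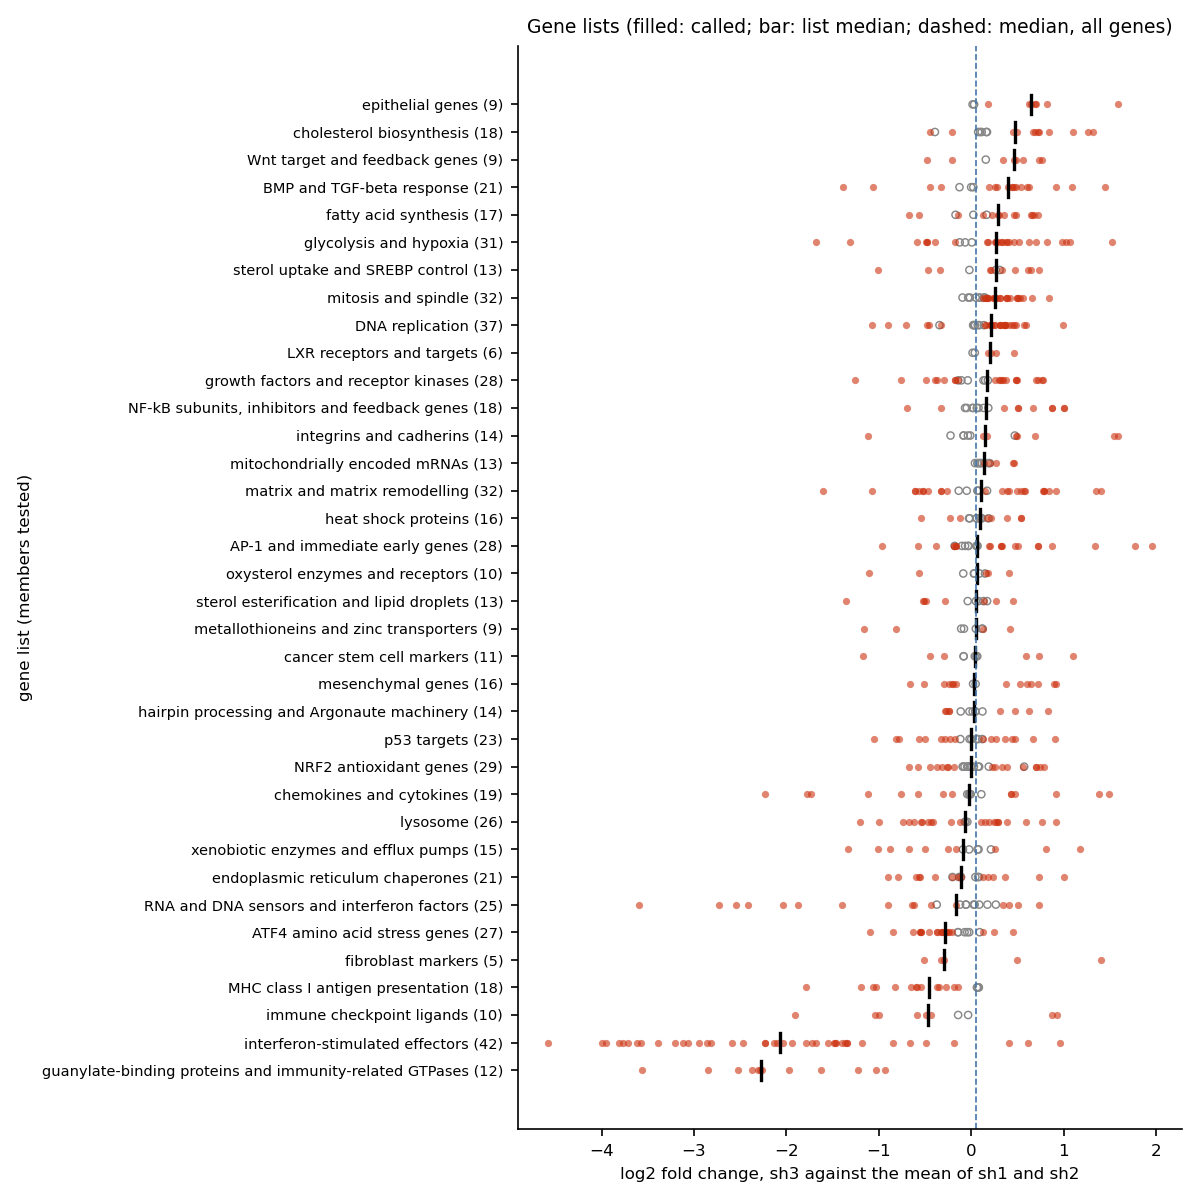
Log2 fold change of sh3 over sh1 and sh2 for the tested members of each list with at least 5 tested members (number in brackets). Filled points are called, open points are not, the black bar is the list's median and the dashed line the median of all 11701 genes (0.05). The interferon-stimulated effectors and the guanylate-binding proteins lie far to the left of the dashed line.

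Markers of cell types were checked in the same libraries. Of 16 markers of colon carcinoma and epithelial lines, 9, among them Cdh1, Epcam and Vil1, were under 0.1 FPKM in all 9 libraries, and 4 reached 1 FPKM in enough libraries to be tested, so few markers of the labelled origin were expressed. Their summed level was 4.74 to 6.98 FPKM in the reference and 12.6 to 14.6 in sh3, most of the difference being Aqp8, and Cdh17 was higher as well (0.48). The summed level of 10 fibroblast markers was 116 to 131 FPKM in the reference and 180 to 188 in sh3, with Col1a1 and Col1a2 higher, Col3a1, Pdgfra and Pdgfrb lower (Col3a1 lost its call, at -0.30, without the third sh3 library), and Lum, Postn and Thy1 under 0.1 FPKM. Of 18 leukocyte markers only Cd14 (0.58) and Cd68 (-0.47) were tested, and Ptprc, Cd3e, Csf1r and Adgre1 were under 0.1 FPKM in all 9. The summed leukocyte level, nearly all Cd14 and Cd68, was 30.4 to 34.96 FPKM in the reference and 42.1 to 47.1 in sh3. Of 20 hepatocyte markers 17 were under 0.1 FPKM in all 9, including Alb, and the sum was 7.65 to 9.02 FPKM in the reference and 8.98 to 9.40 in sh3. No endothelial marker reached the filter. In bulk RNA, fewer cells of a kind and less RNA per cell cannot be told apart. The part of a changed mixture of cells in the differences above was not tested.

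The differing genes were spread over all chromosomes but not evenly. The median log2 fold change was highest on chromosome 17 (0.17, with 47.1% of 595 tested genes higher and 17.3% lower) and chromosome 15 (0.14, with 45% of 480 higher and 18.96% lower), against 0.05 over all genes. Chromosome 1 leaned the other way, with 29.5% of 706 higher and 31.7% lower. In sliding windows of 25 neighbouring genes, the window median ran from -0.75 to 0.46 for sh3 minus sh1 and from -0.66 to 0.51 for sh3 minus sh2, but only from -0.10 to 0.12 for sh2 minus sh1. Neighbouring windows share genes.

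The lowest window, chr1:83116766-85709998, held 18 lower and 3 higher genes and contains the Sp100 and Sp140 family, whose genes are near copies that may share reads. Its most abundant members fell: Gm15433, annotated as a processed pseudogene (-2.60), Gm7592 (-2.33), Gm2619 (-2.18) and Sp140 (-0.87). A second low window, chr1:172148084-177258203, held 14 lower and 5 higher genes and covers the interferon-inducible Ifi200 cluster of DNA-binding proteins, with Ifi204 at 59.2 to 75.8 FPKM and 18.5 to 22.5 FPKM (-1.75), Ifi203 (-1.48) and Ifi202b (-1.30), while its neighbour Tagln2 did not pass the test (-0.05). The highest window, chr5:110839979-114722327, held 18 higher genes and 1 lower. Of its 4 most abundant genes, Gltp (0.50) and Ube3b (0.16, a call lost after median-ratio scaling and, at 0.12, without the first sh3 library) rose, and Pitpnb (-0.09) and Kctd10 (-0.01) did not pass the test.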

How the data were processed

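RNA of 9 CT26 libraries (3 each of hairpins sh1, sh2 and sh3) was read from the authors' deposited FPKM table of 55335 genes. Per the labels, RNA was total RNA, Skewer was used to trim the paired reads. According to the submitters' processing notes, the tools and build include HISAT2, STAR, DESeq2, edgeR and GRCm38. The sources used here do not give which of these made the deposited FPKM, their versions or whether strand was used. The names of the 2 deposited tables are swapped between the drug and the knockdown experiment, so the table and each sample in it were taken by column name. The columns of sh1 end in a pair of numbers and were used as a group. A further 39 columns of the deposited tables were not used. Read totals are not part of FPKM, so no counting intervals were computed.

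Genes that reached 1 FPKM in 3 or more of the 9 libraries were fitted with limma 3.58.1 in R 4.3.3 on log2(FPKM + 1), with a mean-variance trend and 1 mean per hairpin. The contrast was sh3 minus the average of sh1 and sh2, and the single pairs of hairpins came from the same fit. Tests were two-sided, with Benjamini-Hochberg adjustment over all genes tested and a threshold of 0.05. The fit was tested on simulated data of 11463 genes, with 50 genes changed at each size. It found 32% of genes changed 1.2-fold, 74% at 1.5-fold, 96% at 2-fold and 100% at 3-fold, with 16 false calls. Far more genes were called in the data (59.2%), so these rates do not carry over to them.

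Named genes were the 12 protein-coding genes furthest up and the 12 furthest down among those called with no overlap of values, ranked by the smaller of the differences from sh1 and from sh2. To these were added Soat1, Soat2, up to 4 called members of each list by size of change (2 members where none was called) and the most abundant genes of the outlying windows. Genes named outside this rule were chosen after their values were seen, and some genes that the rule picks are not reported here. The 41 gene lists hold 995 different symbols, of which 993 were found in the table, and have no test of their own: their counts are read against those of all genes. The comparison, the lists, the motif and the named genes were chosen with earlier results of these data known. Promoters come from RefSeq, and gene models and coordinates from GENCODE vM21. Alternatives were another pseudocount, other filters on low values, median-ratio scaling, quantile normalization, protein-coding genes alone, no trend, a replicate block and leaving out each library.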

Additional observations from a re-analysis of the deposited data

How the results depend on the processing

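The number of genes called in the main contrast (6925) was between 5809 and 6839 without single libraries, and the counts against sh1 and sh2 alone stayed within 1.5 times under every alternative run. With a pseudocount of 0.1 FPKM, 792 genes were called with at least a 2-fold change in place of 403, and more of them were higher (431) than lower (361), the opposite of 161 and 242. Between sh2 and sh1, 1 gene was called with no filter on low values, and 0 to 13 without single libraries, the 13 without the third sh1 library. Soat1 kept its direction and its call throughout. Of 201 tested genes picked for naming, 191 were called. Over 8 other settings, 1553 of 1583 values kept their side of the threshold, 20 lost the call, 4 gained it and 6 changed sign. Without single libraries, 1747 of 1785 did, 26 lost it, 8 gained it and 4 changed sign. All sign changes were in genes that were not called: Ifnar1 (-0.0445 after median-ratio scaling, -0.0143 after quantile normalization, -0.0745 to 0.0930 without single libraries), Ifnar2 (-0.0353, -0.00705 and -0.0160 to 0.0825), Kctd10 (0.0548 after quantile normalization and -0.0195 to 0.000858 without single libraries) and Tagln2 (0.0411 after quantile normalization). The cause was not tested. Under median-ratio scaling or quantile normalization the medians of 10 lists near 0 changed sign: sterol esterification and lipid droplets, oxysterol enzymes, immediate early genes, stem cell markers, mesenchymal genes, NRF2, p53, metallothioneins, hairpin processing and leukocyte markers. Same-numbered libraries of sh2 and sh3 showed no shared deviation (r over genes -0.0105, 0.0535 and 8.87e-05), and unlike-numbered pairs ran from -0.0791 to 0.071. Whether same-numbered libraries were prepared together cannot be told from these values. The sh1 libraries, used as a group, were not checked and carried no block term. With the replicate block the calls were 6728 for the main contrast, 5985 against sh1, 6155 against sh2 and 0 for sh2 against sh1. The depth is unknown, so no interval can be given for genes under 1 FPKM.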

Other observations

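Genes that do not encode proteins were counted by class, and differences between classes were not tested. Of 10080 protein-coding genes tested, 37.3% were higher in sh3 and 25.1% lower, with a median log2 fold change of 0.07. Of 159 lincRNAs, 43 were higher (27.04%) and 44 lower (27.7%), with a median of -0.03, and of 133 antisense transcripts 25 were higher (18.8%) and 39 lower (29.3%), with a median of -0.04. Of 804 processed pseudogenes 121 were higher and 164 lower, and their reads may be shared with the parent genes. Of 104 snoRNAs 20 were higher (19.2%, against 34.7% of all genes) and 2 lower (1.92%, against 24.5%), with a median log2 fold change of 0.16. Whether the short length of snoRNAs affects their FPKM was not tested.

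Of 32 imprinted genes only 4 passed the filter. The amino acid transporter gene Slc38a4 was higher in sh3, at 11.6 to 13.1 FPKM in the 6 reference libraries and 14.6 to 15.7 in sh3 (log2 fold change 0.28, limma adjusted p = 0.000592), and the other 3 were not called. Among the zinc transporters, Slc39a1 was higher (0.42, adjusted p = 2.36e-05), in the same libraries in which Mt1 and Mt2 were lower.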
